A study of Mus musculus with 17 samples.

Results

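The histone cluster genes are the repeated genes that encode the linker histone H1 and the core histones H2A, H2B, H3 and H4, and 67 of the 23891 gene symbols in the RNA-seq files of this study belong to them. They were taken by name, as every symbol in which "Hist" is followed by a digit and the letter h, and each gene is given by its RefSeq transcript with the highest mean FPKM over the 17 samples (71 transcripts before this choice). Of the 67 genes, 6 encode H1, 18 encode H2A, 18 encode H2B, 12 encode H3 and 13 encode H4. The Hist1 cluster on chromosome 13 holds 53 of them, Hist2 on chromosome 3 holds 10, Hist3 on chromosome 11 holds 3 and Hist4 on chromosome 6 holds 1.

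The cells were 4 lines of spermatogonial stem and progenitor cells (SSCs), 6 lines of multipotent cells (MASCs) that arose from SSCs in long-term culture, 2 embryonic stem cell (ESC) lines, 2 induced pluripotent stem (iPS) cell lines, 2 cultures of haematopoietic stem and progenitor cells (HSCs) and 1 sample of mouse embryonic fibroblasts (MEFs). The strain was Oct4-GFP in SSC.1, SSC.2, MASC.1, MASC.2 and ESC.1, 129mix in SSC.4, MASC.3, MASC.4, ESC.2, both iPS lines and MEF, Gt(ROSA26)Sor-lacZ in MASC.5 and MASC.6, and C57Bl/6J in SSC.3 and both HSC cultures. SSCs came from mice over 3 months old and, like MASCs, ESCs and iPS cells, grew on MEF feeders, which were reduced in SSCs by plating on gelatin before collection. iPS lines were reprogrammed with 2 μg/ml doxycycline from MEFs of E13.5 embryos that carried both tetO-4F2A and H3.3B-HA, and the MEF sample came from E13.5 embryos of H3.3B-HA mice. HSCs were lineage-negative (Lin-) bone marrow cells expanded on E4ORF1-HUVECs, a human endothelial feeder line. Replicates within a group are lines or cultures, some of the same strain, so p-values measure the spread between such lines. The paper reports that the MASC and ESC lines were subcloned, so lines of the same strain may not be independent of each other.

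Most genes of this family are replication-dependent. They are transcribed mainly in S phase, when new DNA has to be packed into nucleosomes, and their mRNA ends in a conserved stem-loop in place of a poly(A) tail. The stem-loop is bound by the stem-loop binding protein SLBP, which directs the processing, translation and decay of the message. Variant histones such as H3.3 and H2A.Z are encoded elsewhere, by genes whose mRNA is polyadenylated and which are expressed outside S phase too. The library kit was an Illumina TruSeq RNA protocol on total RNA. Whether poly(A)+ RNA was selected is not given in the sources used here.

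The stem-loop was read from the genome for 62 of the 67 genes (mm9), as the motif GGNNNTTNTNANNNCC on the transcribed strand within the last 150 bases of the transcript. It was present in 59 of the 62, against 121 of 55152 other GENCODE coding transcripts (0.219%), and lay 4 to 8 bases (median 5) before the annotated end. The following 8 are shown because the results turn on these genes or because they hold the different forms of the element, with the stem-loop in capitals.
Hist1h1c, chr13:23831376-23831400, plus strand: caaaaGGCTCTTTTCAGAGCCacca
Hist1h2ag, chr13:22134347-22134372, minus strand: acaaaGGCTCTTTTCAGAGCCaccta
Hist2h2aa1, chr3:96043702-96043727, minus strand: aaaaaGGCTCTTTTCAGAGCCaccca
Hist1h2ba, chr13:24025594-24025619, minus strand: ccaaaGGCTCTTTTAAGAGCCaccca
Hist1h3c, chr13:23836911-23836936, minus strand: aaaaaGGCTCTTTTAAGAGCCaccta
Hist1h3g, chr13:23627753-23627778, plus strand: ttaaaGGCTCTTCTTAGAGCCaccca
Hist1h4f, chr13:23643155-23643180, minus strand: tcaaaGGCCCTTTTCAGGGCCaccca
Hist1h4i, chr13:22132830-22132855, minus strand: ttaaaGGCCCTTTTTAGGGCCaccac

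The form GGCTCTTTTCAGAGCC was found in 36 genes and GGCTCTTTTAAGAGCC in 9. All 12 stem-loops of H4 genes had a stem that begins GGCCC or GGTCC, and no gene of another class had one. No match was found in Hist1h2an, in Hist2h2be, whose transcript is 2618 bases long, or in Hist1h4j, where a match (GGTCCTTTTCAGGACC) ends 45 bases past the annotated end. Hist1h2bc and Hist1h2bq were not read because their transcripts are spliced, the only 2 of the 67, and Hist2h3c1, Hist2h3c2 and Hist3h2bb-ps because no coding model gave their strand.

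Upstream of the start sites, 61 of the 67 genes matched a RefSeq promoter (GRCm38.p6, the 250 bases before the start, both strands searched). The box CCAAT was present in 50 of them (82.0%) and in 34.5% of all 27025 promoters. It was in all H1, H2A and H2B promoters matched but in 3 of 12 H4 promoters. The octamer ATTTGCAT was present in 7 of 18 H2A and 6 of 15 H2B promoters and in none of the H1, H3 and H4 promoters, against 1.61% of all promoters. TATAAA was present in 29 of the 61 (47.5%), against 13.0% of all. Shown are the promoter of Hist1h3c, the H3 gene with the largest difference between MASCs and SSCs, with its 5 such boxes in capitals, and that of Hist1h2bg, the H2B gene with the largest difference between HSCs and pluripotent lines, with the octamer, the TATA box and both boxes of the first kind, 1 of them on the other strand, in capitals.
Hist1h3c, chr13:23745522-23745771, minus strand: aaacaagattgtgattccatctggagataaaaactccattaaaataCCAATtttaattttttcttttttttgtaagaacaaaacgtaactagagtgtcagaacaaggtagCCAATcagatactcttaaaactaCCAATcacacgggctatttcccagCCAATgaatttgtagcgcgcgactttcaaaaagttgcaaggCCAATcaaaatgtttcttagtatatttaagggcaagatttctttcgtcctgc
Hist1h2bg, chr13:23571150-23571399, plus strand: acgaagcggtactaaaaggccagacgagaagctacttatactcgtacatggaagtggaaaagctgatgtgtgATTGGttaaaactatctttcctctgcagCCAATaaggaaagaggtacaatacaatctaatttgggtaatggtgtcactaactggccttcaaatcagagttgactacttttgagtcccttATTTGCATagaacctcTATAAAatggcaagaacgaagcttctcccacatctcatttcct

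Near-identical copies limit what a value of 1 gene means. The authors excluded reads that map to more than 1 place. In the median member read, 49.4% of all 50-base windows also occur in another member that does not overlap it in position. Windows shared only with an overlapping member were not counted. Members that were not read and the rest of the genome were not searched, so the share is a lower bound for every gene. This share was lowest in H1 (median 9.54%) and highest in H2B (median 65.3%), and 31 of the 62 genes shared at least 50% of their windows. In addition, 8 members lie in pairs that overlap in their annotated span (Hist1h2ao with Hist1h2ap, Hist2h2aa1 with Hist2h2aa2, Hist2h3c1 with Hist2h3c2, Hist1h4m with Hist1h4n). In SSC.2, for example, Hist1h2ao was estimated at 4e-06 FPKM and its partner Hist1h2ap at 4.17, whereas SSC.1 gave 11.8 and 1.90. The split of reads within such a pair is uncertain.

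Read counts are not in these tables, and the counting error behind an FPKM is therefore not known. A transcript at 1 FPKM was covered by 1.26 (HSC.2) to 3.23 (iPS.1) reads per base. For member values of at least 1 FPKM, the half-width of the Cufflinks interval was 28.9% of the value in the median. The summed FPKM of 7 pluripotency genes was 2785 to 4363 in MASCs against 12.8 to 155 in SSCs, and 7 blood progenitor genes summed to 1486 and 1997 in HSCs against at most 14.8 in the SSC, MASC, ESC and iPS lines. The most abundant transcripts of HSC.1 and HSC.2 were Tpsb2 and Mcpt4, which encode mast cell proteases.

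The libraries fell into sets that cross the cell types. Rn4.5s, a small non-coding RNA without a poly(A) tail, had 31.0 to 759 FPKM in 8 libraries (SSC.1, SSC.3, MASC.1, MASC.2, ESC.1, HSC.1, HSC.2 and MEF) and 1.95 to 9.68 FPKM in the other 9. A limit of 20 FPKM between these sets was set after the values were seen. The median FPKM of the 67 histone genes was 3.03 to 13.8 in the 8 libraries and 0.576 to 3.15 in the 9. The summed FPKM of 9 fibroblast markers was 119.3 to 955 in SSC.1, SSC.3, MASC.1, MASC.2, ESC.1 and HSC.2 and 6633 in MEF, but 8.09 in HSC.1, against 4.96 to 73.6 in the 9 libraries with low Rn4.5s. Of 12 listed RNAs without a poly(A) tail 9 were found, and most of their summed FPKM was Mir6236. In SSCs the sum was higher in the libraries with high Rn4.5s, at 8338 and 11613 in SSC.1 and SSC.3 against 1059 and 1587 in SSC.2 and SSC.4, the lowest of all 17 samples. Across all samples it was highest in the iPS lines, which had low Rn4.5s, at 22447 and 22883 FPKM. The part of these in the histone values was not tested, and the counts below are given with and without the split. Among MASC lines the 2 libraries with high Rn4.5s are also the 2 of the Oct4-GFP strain, so the library set and the strain cannot be told apart there.

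**Figure D1:**
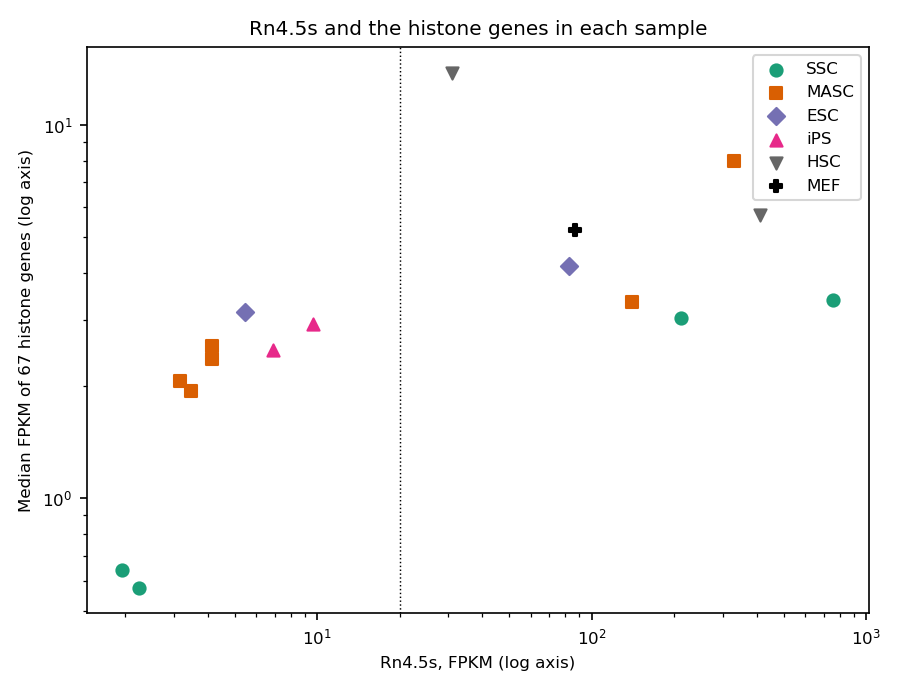
Each point is 1 sample, with the FPKM of Rn4.5s on the x axis and the median FPKM of the 67 histone genes on the y axis (both log axes), and the dotted line marks 20 FPKM. All 8 samples right of the line have a median of at least 3.03, and the 9 left of it have at most 3.15.

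The histone cluster genes were expressed at low levels in these libraries, and the level was ordered by cell type and library together. The median over the 67 genes was 0.576 to 3.40 FPKM in the SSC lines, 1.93 to 7.999 in MASCs, 3.15 and 4.19 in ESCs, 2.49 and 2.93 in iPS cells, 5.71 and 13.8 in HSCs and 5.24 in MEF. The ranges of SSCs, MASCs, ESCs and iPS cells overlapped, and both HSC values were above those of all SSC, ESC and iPS lines and of 5 of 6 MASC lines. Only 17 of the 67 genes had at least 1 FPKM in every sample, and 2 (Hist1h1t and Hist2h3c1) were below 1 FPKM in every sample. HSC.2 was the highest of all 17 samples for 52 genes (77.6%), against 9.1% of the 17140 transcripts with a mean of at least 1 FPKM. SSC.2 or SSC.4 was the lowest for 54 genes (80.6%), against 2060 of those 17140 transcripts.

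**Figure D2:**
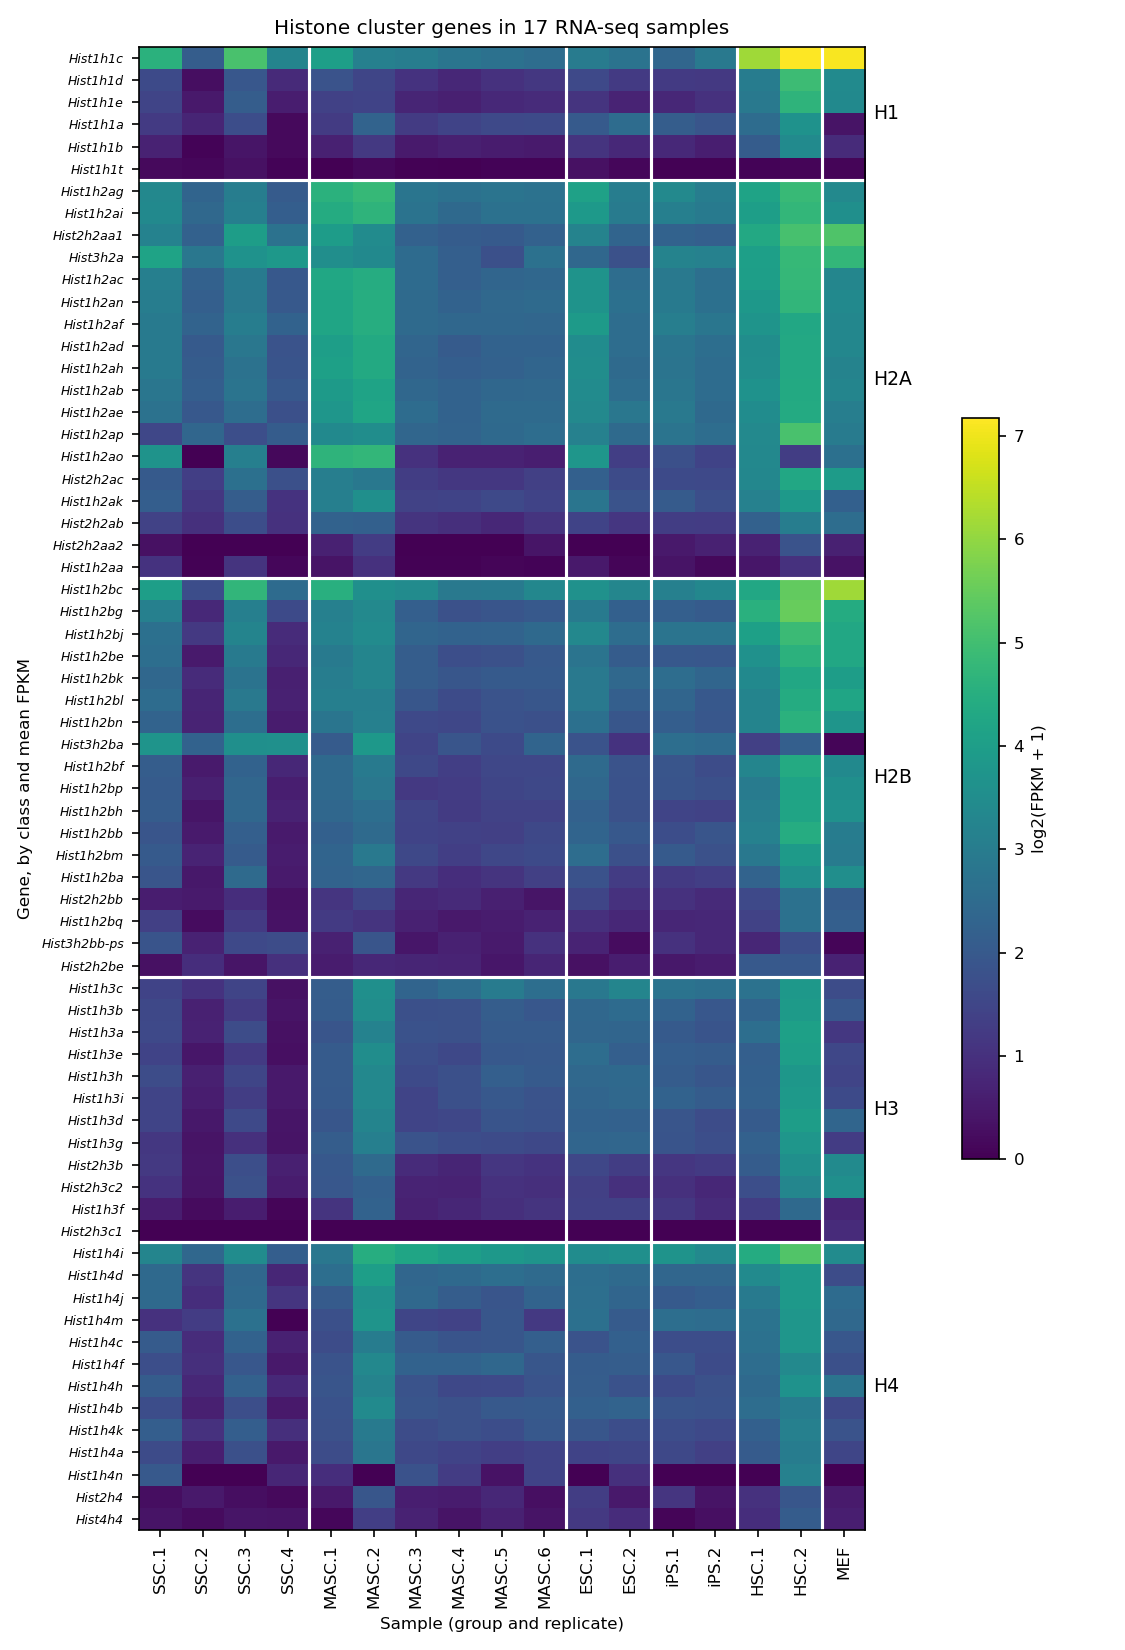
Rows are the 67 genes by class and mean FPKM, columns are the 17 samples, and colour is log2(FPKM + 1). SSC.2 and SSC.4 are dark in H2B, H3 and H4, the H2A block is bright in MASC.1 and MASC.2, the H3 and H4 blocks in MASC.2, and nearly all rows in HSC.2.

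Members of H2A, H2B, H3 and H4 mostly moved together across samples, those of H1 less so, and the classes did not follow 1 pattern. Over the 17 samples, the median Pearson's r of log2(FPKM + 1) between 2 genes was 0.925 in H2B, 0.911 in H3, 0.799 in H4, 0.795 in H2A and 0.481 in H1. Between classes it was highest for H3 with H4 (0.814) and lowest for H1 with H3 (0.520). It was 0.79 for H2A with H2B and 0.751 for H1 with H2B, so r was not always higher within a class than between classes. The lowest r of a pair within a class was -0.359, in H2B. The r between other transcripts was not computed. These points share libraries, cell types and, within a class, near-identical sequence. Among MASC lines, all 18 H2A genes were higher in both MASC.1 and MASC.2 than in the other 4 lines, and 15 of 18 H2B genes, but only 2 of 13 H4 genes. The share of all transcripts with this order was not computed, and MASC.1 and MASC.2 also differ from the other 4 lines in strain and Rn4.5s. MASC.2 alone had the highest value of all 12 H3 genes and of 12 of 13 H4 genes among the MASC lines, against 21.8% of the 17140 transcripts. In SSCs, 59 of the 67 genes were higher in SSC.1 and SSC.3 than in SSC.2 and SSC.4, against 25.2% of the 17140 transcripts.

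**Figure D3:**
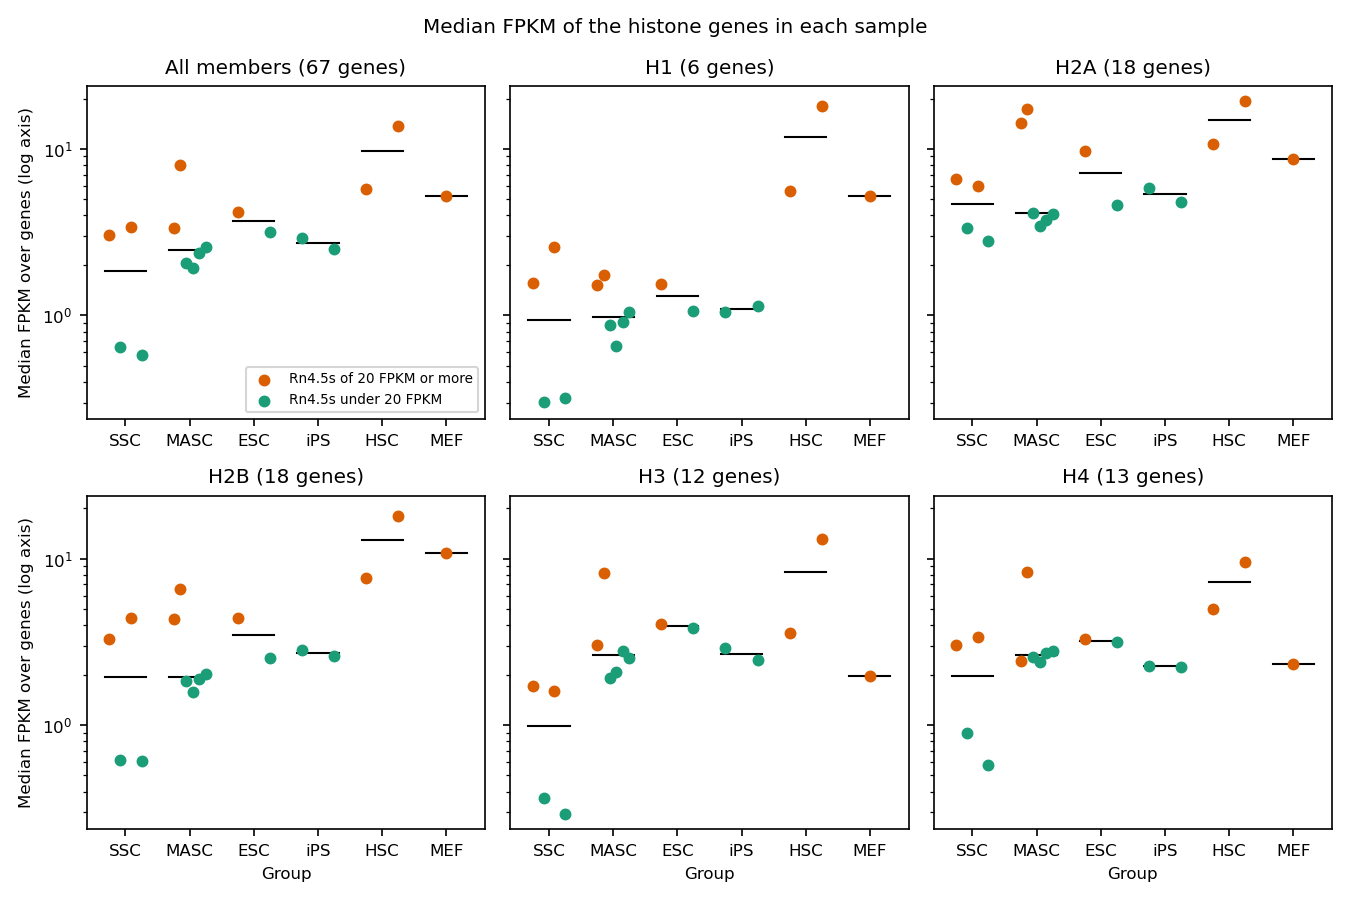
Each point is 1 sample, the y axis is the median FPKM over the genes of a class (log axis), the line is the median of a group, and orange marks Rn4.5s of 20 FPKM or more. Within each colour, the 2 SSC samples lie below the MASC, ESC and iPS samples for H3, whereas for H1 the orange SSC and MASC samples overlap.

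The comparison of MASCs with SSCs asks what differs after SSCs convert to multipotent cells. Of the genes called, 7 were H3 genes of the Hist1 cluster. In limma, 8 of the 67 genes were higher in MASCs at an adjusted p under 0.05 and none was lower. All 8 are core histone genes of Hist1, namely Hist1h3a, Hist1h3b, Hist1h3c, Hist1h3e, Hist1h3g, Hist1h3h, Hist1h3i and Hist1h4f. Among all 32661 transcripts 30.9% were called, 11.4% as higher, so the share of members called higher (11.9%) was near the background. The median log2 difference of the 67 genes was 0.47, with 55 above 0, against -0.0048 over all transcripts. As these are bulk samples, fewer cells in S phase and less histone RNA per cell cannot be told apart.

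H3 is the core histone that, with H4, is deposited first on new DNA, and 7 of its 12 genes rose in MASCs. Hist1h3c, the H3 gene with the highest mean, was at 1.70, 1.08, 1.76 and 0.261 FPKM in SSC.1 to SSC.4. In MASCs it had a lowest value of 3.36, a median of 4.95 and a highest value of 10.8 FPKM. The groups did not overlap, and the difference was 1.62 ± 0.31 (SE) in log2(FPKM + 1) (limma adjusted p = 0.00326, higher in 6 of 6 lines). It was 1.60 within the Oct4-GFP lines (2 against 2) and 2.11 within the 129mix lines (2 against 1). With a term for Rn4.5s it was 1.67 (limma adjusted p = 0.00316). Within the libraries under 20 FPKM of Rn4.5s it was 1.92 (adjusted p = 0.0103), and within those above it 1.40 (adjusted p = 0.341).

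Hist1h3g was at 1.25, 0.291, 0.977 and 0.292 FPKM in SSCs, and at 1.94 (lowest), 2.42 (median) and 7.49 (highest) in MASCs. Its difference was 1.27 ± 0.31 (adjusted p = 0.0111), again without overlap. Hist1h3e had 0.223 to 1.72 FPKM in SSCs and 1.93 to 10.5 in MASCs (difference 1.30 ± 0.39, adjusted p = 0.0311). Of the other called H3 genes, Hist1h3b, Hist1h3i and Hist1h3a also had all MASC lines above all SSC lines, with differences of 1.24, 1.12 and 1.07. Hist1h3h overlapped between groups and was chosen here after its values were seen, as was Hist1h4f below. Every sample of MASCs was above every sample of SSCs in 8 of the 67 genes, the 6 called genes above with Hist1h3f and Hist1h4b, against 9.91% of all transcripts. Hist1h3d (0.99 ± 0.38, limma adjusted p = 0.0777), Hist1h3f (0.77 ± 0.28, adjusted p = 0.068) and the Hist2 genes Hist2h3b and Hist2h3c2 were not called (median over the 12 H3 genes 1.08).

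H4 genes were less separated. All 13 had a higher mean in MASCs, with a median difference of 0.64, and 1 was called. Hist1h4f was at 2.31, 0.972, 2.83 and 0.402 FPKM in SSCs and at 2.60 to 9.18 in MASCs (difference 1.05 ± 0.35, adjusted p = 0.0461). Hist1h4i, the H4 gene with the highest mean, had 8.69, 4.28, 10.3 and 3.42 FPKM in SSCs. In MASCs it had 6.17 (lowest), 14.3 (median) and 21.2 (highest), and the lowest line, MASC.1, lay within the SSC range (difference 1.02 ± 0.36, adjusted p = 0.0555). Hist1h4d and Hist1h4j differed by 1.07 and 0.66 and were not called.

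None of the 18 H2A and 18 H2B genes, which encode the outer pairs of the nucleosome core, was called between MASCs and SSCs. The spread within MASCs was wide. Hist1h2ag, the H2A gene with the highest mean, was at 9.16, 3.95, 7.30 and 3.14 FPKM in SSCs, at 23.1 and 26.9 in MASC.1 and MASC.2 and at 5.38 to 5.85 in the other 4 MASC lines. The MASC values lie on both sides of SSC.1 (difference 0.70 ± 0.55, adjusted p = 0.401). Hist1h2ai followed the same order, at 3.45 to 9.58 in SSCs, 20.4 and 24.2 in MASC.1 and MASC.2 and 4.45 to 5.71 in the others.

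Among H2B genes, Hist1h2bc had 15.2, 2.26, 25.7 and 4.74 FPKM in SSCs and 6.42 (lowest), 9.50 (median) and 22.1 (highest) in MASCs, a difference of 0.20 ± 0.57. Hist1h2bg and Hist1h2bj differed by 0.22 and 0.68, and neither was called. The lowest differences of all 67 belonged to genes of the small Hist3 cluster, named here after their values were seen. Hist3h2ba was at 12.01, 3.80, 10.8 and 11.1 FPKM in SSCs and at 1.79 (lowest), 2.93 (median) and 13.3 (highest) in MASCs (difference -1.08 ± 0.48, adjusted p = 0.126). Hist3h2a was at 17.1, 6.16, 11.6 and 13.1 in SSCs and at 2.36 to 10.7 in MASCs (difference -0.95 ± 0.40, adjusted p = 0.104). Neither passed the test, and in both the groups overlapped. With a term for Rn4.5s, Hist3h2a was called lower (-0.80, limma adjusted p = 0.0427) and Hist3h2ba was not.

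Linker histone genes, whose product binds the DNA between nucleosomes, did not pass the test between MASCs and SSCs. Hist1h1c, which gave 40.4% to 86.9% of the summed H1 FPKM of each sample, was at 22.8, 3.35, 33.5 and 8.43 FPKM in SSCs. In MASCs it was at 4.97 (lowest), 6.62 (median) and 15.6 (highest), inside the SSC range (difference -0.71 ± 0.55, adjusted p = 0.392). Hist1h1a had 1.34, 0.683, 2.26 and 0.139 FPKM in SSCs and 1.37 to 3.91 in MASCs (difference 0.61 ± 0.30, adjusted p = 0.169). Hist1h1b, Hist1h1d and Hist1h1e differed by 0.34, 0.05 and -0.18.

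**Figure D4:**
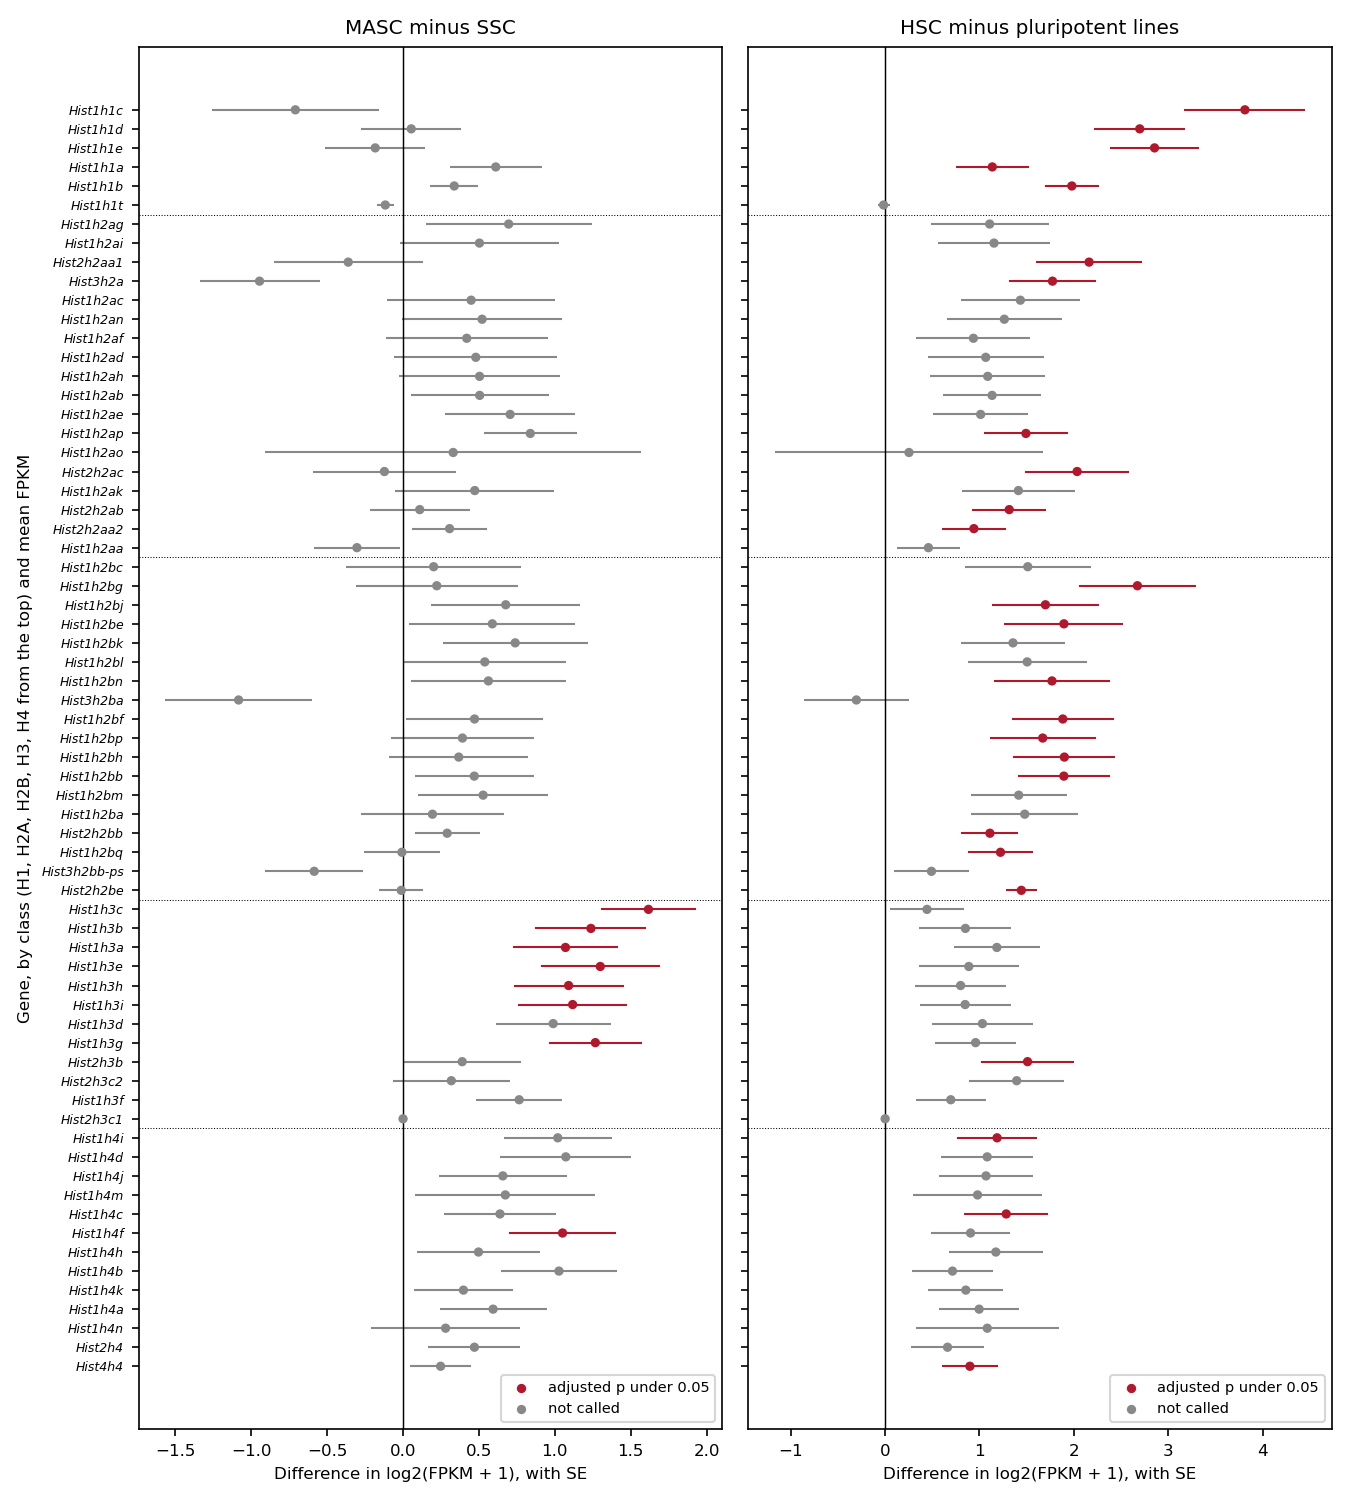
For each of the 67 genes the point is the difference in log2(FPKM + 1) from limma and the line its standard error, at left MASCs minus SSCs and at right HSCs minus the mean of ESCs, MASCs and iPS cells. Red marks an adjusted p under 0.05, which holds for 8 genes at left, 7 of them H3, and for 26 at right, among them 5 of 6 H1 and 11 of 18 H2B genes.

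The count for MASCs against SSCs moved with the library set and with single lines. With a term for Rn4.5s, 37 genes were higher and Hist3h2a was lower (all transcripts, 13.7% higher), namely 12 H2A, 11 H2B, 9 H3, 4 H4 and 1 H1 gene higher. Within the 6 lines of these 2 groups with Rn4.5s under 20 FPKM (2 SSC and 4 MASC, fitted with ESC.2), 37 were higher (all transcripts, 11.7%), and within the libraries above it 2. With strain as a block 20 were higher (all transcripts, 10.0%). Without SSC.2 or without SSC.4, 2 genes were higher (all transcripts, 10.7% and 9.9%), and without MASC.4, MASC.5, MASC.6, ESC.1 or ESC.2 each time 4 were (all transcripts, 10.2% to 11.3%). With median centring 16 members were higher, and the calls over all transcripts moved from 11.4% higher and 19.5% lower to 40.3% higher and 16.2% lower. At a raw p under 0.05 with a log2 difference of at least 2 no member was called, against 4.01% of all transcripts. The study's methods can also be read as a difference of 1 on this scale, where 11 members were higher, against 6.49% of all transcripts. At a raw p under 0.05 alone 14 were higher and 1 was lower, against 15% and 24.9%.

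ESCs against SSCs shared the SSC samples with the comparison above and are given side by side with it. In limma 3 genes were higher in ESCs and none lower, Hist1h3c by 2.00 ± 0.42 (adjusted p = 0.00778), Hist1h3g by 1.63 ± 0.41 (adjusted p = 0.0194) and Hist1h1a by 1.32 ± 0.41 (adjusted p = 0.0457). Of all transcripts 21.4% were called, 7.67% as higher. Hist1h3c was at 6.35 and 8.64 FPKM in ESCs and Hist1h3g at 4.04 and 4.17, all above the SSC values. Hist1h1a was at 3.13 and 4.78 against at most 2.26 in SSCs. Hist1h2ag (16.1 and 7.29), Hist2h2aa1 (8.17 and 3.95), Hist1h2bc (11.4 and 8.87), Hist1h4i (10.2 and 10.97) and Hist1h1c (6.90 and 5.63) were not called. The median difference over the 67 genes was 0.64. Without ESC.2 no gene was called and without ESC.1 only 1 (all transcripts, 5.24% and 5.47% higher), whereas 12 were higher without MASC.2 (all transcripts, 8.1%), which enters through the shared estimate of the spread.

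Between MASCs and ESCs no histone cluster gene was called by limma, against 0.0306% of all transcripts. At a raw p under 0.05 it was 1 of 67, Hist1h1t, at 0 to 0.122 FPKM in MASCs and 0.245 and 0.0861 in ESCs. The median difference was -0.14, and 17 genes were above 0. Its sign turned with the libraries used: it was 0.14 without ESC.1, 0.08 with the strain as a block and 0.06 with the term for Rn4.5s. For Hist1h3c the difference was -0.38 ± 0.40 and for Hist1h2ag -0.19 ± 0.69. In iPS cells, which were in no test of their own, Hist1h3c was at 5.71 and 5.22 FPKM, Hist1h2ag at 9.45 and 7.19, Hist1h4i at 11.9 and 9.47, Hist1h2bc at 7.72 and 9.03 and Hist1h1c at 4.19 and 6.47. Each of these lies within the range of the MASC lines, except Hist1h1c in iPS.1, which lies below it.

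HSC.2 had the highest level of most histone cluster genes, while the summed FPKM of HSC.1 (537) was below that of MASC.2 (596) and MEF (652). Against the mean of ESCs, MASCs and iPS cells, 26 of the 67 genes were higher in HSCs and none lower. Among all transcripts 33.3% were called, 15.9% as higher, and 38.8% of the members were. By class the called genes were 5 of 6 H1, 6 of 18 H2A, 11 of 18 H2B, 1 of 12 H3 and 3 of 13 H4. The median difference was 1.15, with 65 of 67 above 0. In 22 genes both HSC values were above every ESC, MASC and iPS line, against 15.6% of all transcripts.

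Hist1h1c was at 69.7 and 143.7 FPKM in HSCs, whereas the 10 pluripotent lines had between 4.19 and 15.6. The difference was 3.81 ± 0.64 (limma adjusted p = 0.000614), without overlap. Hist1h1e was at 6.45 and 24.4 FPKM in HSCs against at most 1.71 in pluripotent lines (difference 2.85 ± 0.47, adjusted p = 0.000524). Hist1h1d was at 7.15 and 29.2 against at most 2.55 (2.70 ± 0.48, adjusted p = 0.000933). Hist1h1b and Hist1h1a were higher by 1.98 and 1.14. The call for Hist1h1a was lost in 15 of 26 alternatives, against 1 of 26 for each of the other 4, and its value in HSC.1 (4.779) was close to that in ESC.2 (4.775). The testis form Hist1h1t was at 0.0573 and 0.0722 FPKM.

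Of the core histone genes, Hist1h2bg had the largest difference. It was at 22.4 and 44.5 FPKM in HSCs and at 2.44 to 9.39 in the pluripotent lines (difference 2.67 ± 0.62, adjusted p = 0.00518). Hist2h2aa1 was at 19.1 and 32.8 against 3.09 to 14.6 (2.16 ± 0.56, adjusted p = 0.0103). Hist1h2bc, at 18.9 and 43.2 FPKM, was not called (1.51 ± 0.67, adjusted p = 0.109), and MASC.1 overlapped with it at 22.1. Hist1h2bj was higher by 1.70 and Hist1h4i by 1.19. Hist1h3c, at 5.53 and 13.1 FPKM in HSCs, was not called (0.44 ± 0.39, adjusted p = 0.467), nor were Hist1h2ag, Hist1h2ai, Hist1h3a, Hist1h3b, Hist1h4d and Hist1h4j. HSC.2 was above HSC.1 in 64 of the 67 genes (95.5%), against 63.5% of the 17140 transcripts, and Rn4.5s was at 411 FPKM in HSC.1 and 31.0 in HSC.2.

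Both HSC libraries had Rn4.5s above 20 FPKM and both were C57Bl/6J, a strain shared only with SSC.3. With a term for Rn4.5s 12 genes were higher and 1 lower (all transcripts, 14.7% higher), 4 of them H1, and the median difference fell to 0.49. With strain as a block 1 gene was higher (all transcripts, 7.95%) and the median was 0.15. In that fit HSCs are tied to the pluripotent lines only through SSC.3. Without HSC.2 it was 5 genes (all transcripts, 11.9%), without ESC.2 17 (14.4%), and without iPS.1 or iPS.2 16 (14% and 14.4%). Hist1h1c was called in each of these fits (adjusted p = 0.0162 without HSC.2) except the one with strain as a block, where its difference was 1.81 (adjusted p = 0.282).

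The single MEF sample had no replicate, and its values are given without a test. It had the highest value of all 17 samples for 4 genes, among them Hist1h2bc at 69.9 FPKM and Hist2h2aa1 at 35.8. Hist1h1c was at 137.6 FPKM, between the HSC cultures. MEF was above every ESC, MASC and iPS line in 15 of 18 H2B genes and 3 of 6 H1 genes, but in 0 of 13 H4 genes. The shares of all transcripts that are highest in MEF, or above all these lines there, were not computed. Hist1h3c was at 2.16 FPKM, below all MASC, ESC and iPS lines, and Hist1h1a at 0.295. Hist3h2ba was at 0.0786 FPKM beside 25.9 for its neighbour Hist3h2a. Among SSC and MASC lines, Hist1h2bc and Hist1h1c were highest in SSC.1, SSC.3 and MASC.1, where the fibroblast markers summed to 346, 814 and 955 FPKM. The part of fibroblast RNA in these values was not tested.

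**Figure D5:**
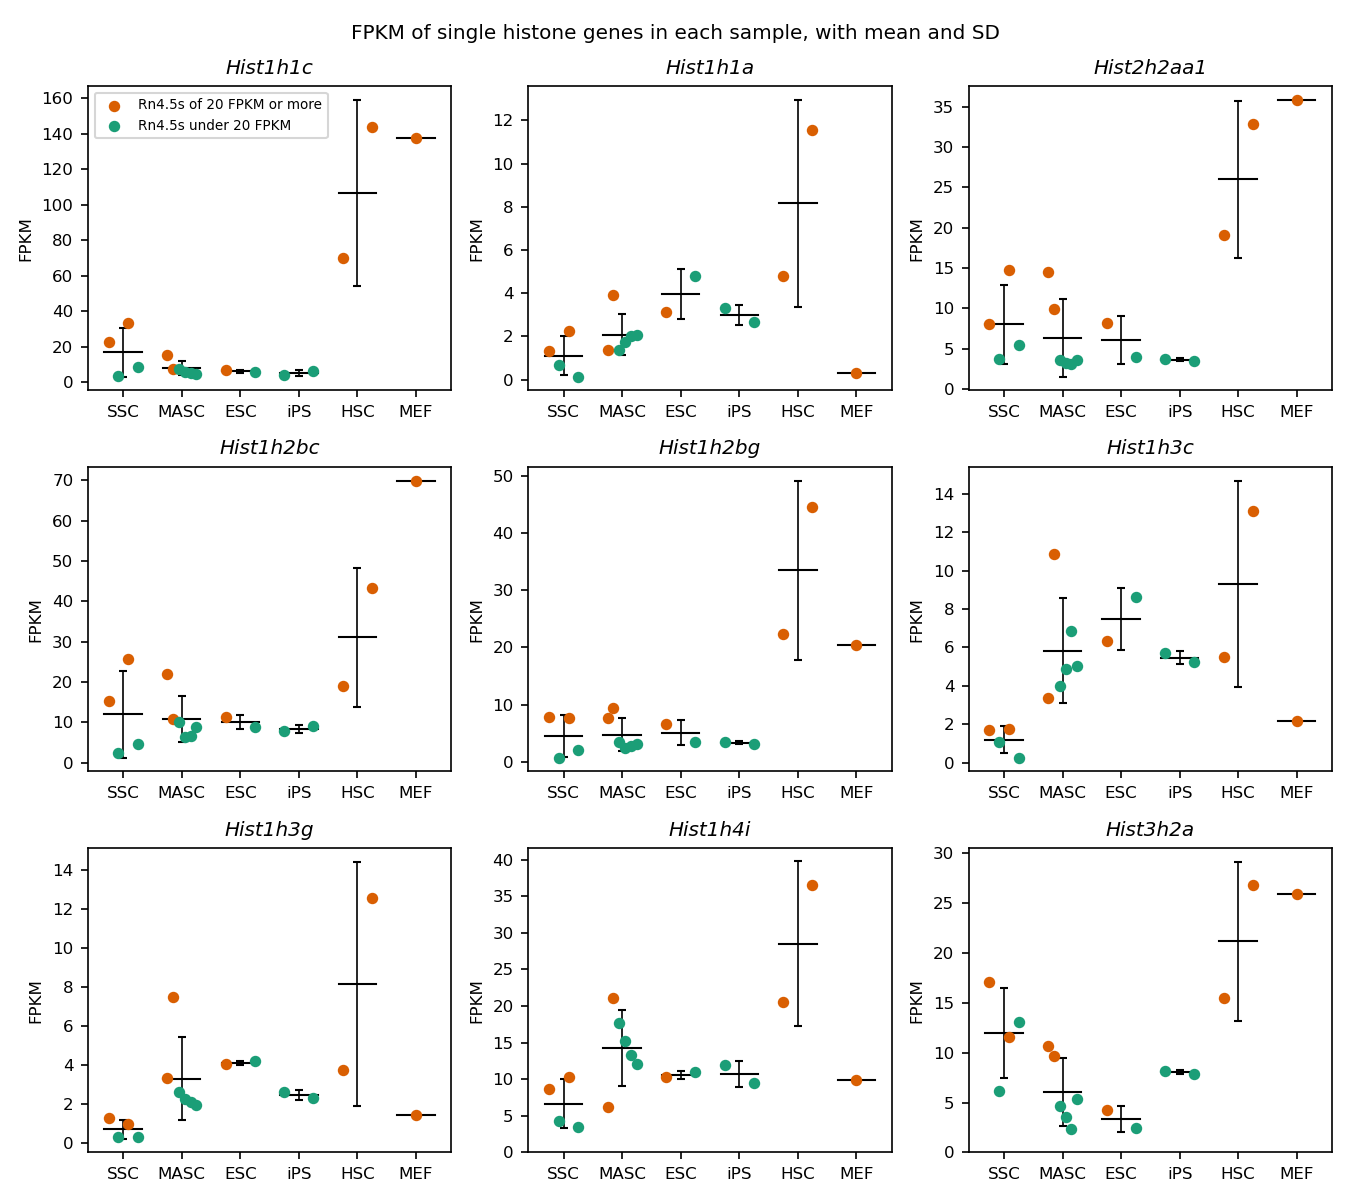
FPKM of 9 genes in each sample (points), with the mean (line) and SD (bar) of each group and orange for Rn4.5s of 20 FPKM or more. Hist1h3c and Hist1h3g separate the 4 SSC from the 6 MASC lines, whereas Hist1h1c and Hist2h2aa1 are highest in HSCs and MEF, and Hist1h2bc in MEF and HSC.2.

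Of the 3 testis-type genes, which encode histones of spermatocytes and later germ cells, Hist1h1t and Hist1h2aa were low. Hist1h2ba was low in SSC.2 and SSC.4 and highest in HSC.2 and MEF. Hist1h1t was at most 0.245 FPKM in any sample. Hist1h2aa, the testis H2A, had 1.09, 0.0294, 1.13 and 0.0914 FPKM in SSCs, 0.0293 to 1.02 in MASCs and 1.05 in HSC.2. Hist1h2ba, the testis H2B, was at 2.69, 0.390, 4.57 and 0.444 in SSCs, 0.911 to 4.21 in MASCs, 3.89 and 10.9 in HSCs and 10.6 in MEF. The median of the 67 genes was 3.03, 0.642, 3.40 and 0.576 in SSC.1 to SSC.4 and 5.24 in MEF. Of the 50-base windows of Hist1h2ba, 33.9% also occur in other members. None of the 3 was called in any comparison.

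Genes around the pathway were taken from lists, whose counts stand beside 11.4% higher and 19.5% lower over all transcripts for MASCs against SSCs, 7.67% and 13.8% for ESCs, and 15.9% and 17.4% for HSCs against pluripotent lines. Of 20 S phase genes, 9 rose and 1 fell in MASCs against SSCs (8 and 0 in ESCs). The largest rises were in Ccne1, which encodes cyclin E1, from 5.28 to 17.6 FPKM in SSCs to 116 to 148 in MASCs (3.74 ± 0.27, limma adjusted p = 7.63e-06), Rrm2, a subunit of ribonucleotide reductase (3.16), and Gins2, a part of the replicative helicase (1.64). In HSCs against pluripotent lines 8 of the 20 fell and none rose, with Ccne1 lower by 3.07, Rrm2 by 1.61 and Ccna2 by 1.13 on the log2 scale. The relation of these falls to the 26 histone cluster genes called higher there was not tested.

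Of 15 genes for the transcription and 3' end processing of histone mRNA, 2 rose and 4 fell in MASCs. Slbp was at 65.4, 123.2, 88.3 and 92.5 FPKM in SSCs and at 48.6 to 64.9 in MASCs (-0.59 ± 0.15, adjusted p = 0.0146). Npat, which activates transcription of the clusters, was at 12.3 to 22.04 in SSCs and 5.84 to 10.4 in MASCs (-0.96 ± 0.22, adjusted p = 0.00868). In SSCs and MASCs the groups did not overlap for either gene. Ncbp2, a subunit of the cap-binding complex, fell by 0.61 on the log2 scale and Zfp473, which encodes a protein of the U7 snRNP-dependent processing, rose by 1.48. In HSCs against pluripotent lines 1 rose and 7 fell, with Slbp at 38.4 and 37.4 FPKM (-0.67 ± 0.17, adjusted p = 0.00912), Npat lower by 1.15, Casp8ap2 lower by 1.46 and Zfp473 listed at 0 in both cultures.

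Of 16 replication-independent and variant histone genes, 2 rose and 2 fell in MASCs. H2afz, which encodes H2A.Z, was at 210, 326, 283 and 230 FPKM in SSCs and at 812 to 1097 in MASCs (1.93 ± 0.14, adjusted p = 1.05e-05), far above any cluster gene. H2afj rose by 1.36, and H2afv changed by -1.16. H3f3b, a gene for H3.3, was at 248.6 to 512 in SSCs and 353 to 451 in MASCs and was not called in any comparison. In HSCs 3 rose and 2 fell, among them H1f0, the linker histone of non-dividing cells, at 116 and 86.9 FPKM (2.13 ± 0.36, adjusted p = 0.000629), H2afy (1.44), and H2afy2 at 0.465 and 0.733 FPKM, with a difference of -3.40.

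Of 20 histone chaperones found of 21 listed, 5 rose and 6 fell in MASCs against SSCs. Daxx, a chaperone of H3.3, rose by 1.27, whereas Ubn1 and Hjurp differed by -1.80 and -1.49. In HSCs 2 rose and 11 fell. The largest fall was in the analysed transcript of Nasp, a chaperone of H1 and of free H3 and H4, at 1.15 and 0.990 FPKM in HSCs and 131 to 241 in pluripotent lines (-6.56 ± 0.25, adjusted p = 1.41e-09), followed by Hat1 (-2.71) and Atrx (-2.03). Of 9 RNAs without a poly(A) tail found of 12 listed, 1 rose in MASCs (Terc, by 1.24) and 1 in HSCs (Rnu12, by 2.99). In the comparison of MASCs with ESCs none of these lists had a called gene.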

How the data were processed

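RNA-seq of 17 samples was used, 1 file each. The authors deposited FPKM per RefSeq transcript, made with TopHat2 2.0.11 on mm9 and Cufflinks (version not given in the sources used here) with upper-quartile and GC-normalization, without duplicate reads and reads mapping to several places. The authors also deposited Cufflinks coverage, a signal in reads per base, and intervals. Of 33262 rows, 601 further loci were left out. The 32661 transcripts were compared as log2(FPKM + 1) without a filter, with limma 3.58.1 in R 4.3.3 over the 12 SSC, MASC and ESC lines, and over all 17 samples for HSCs, with Benjamini-Hochberg adjustment and a threshold of 0.05. Positions of genes are on mm9 (NCBIM37) and counted from 1. The fit was tested on simulated data. Differences on this scale understate changes of low genes. Members and lists were chosen with earlier results of these data known. Genes named are the testis types, the linker genes, the 3 highest per core class, and per comparison the 5 largest calls per direction (3 per other list), and other genes were named after their values were seen. Alternatives were other pseudocounts, filters, scalings, blocks, thresholds and left-out samples, and, added after the data were seen, the Rn4.5s split.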

Additional observations from a re-analysis of the deposited data

Results flagged for a closer look

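MASC.2 lay apart from the other 5 MASC lines, by a gap that is large against the range of the group (Dixon's 95% limit), in 10 of the named genes and in the median over the 67 genes. Of 48 groups 11 were flagged, all of them for MASC.2. Chance flags about 1 in 20 independent groups, but these genes share libraries and move together, so the flags are not independent and the count cannot be set against that rate. MASC.2 was the highest MASC line in 57 of the 67 genes, against 21.8% of the 17140 transcripts with a mean of at least 1 FPKM. Its FPKM, beside the range of the other 5 lines, was 15.2 against 4.13 to 5.05 for Hist1h4d, 7.999 against 2.46 to 3.20 for Hist1h3a, 10.4 against 2.37 to 3.35 for Hist1h3b, 10.5 against 1.93 to 3.17 for Hist1h3e, 9.27 against 1.79 to 3.12 for Hist1h3i and 7.49 against 1.94 to 3.35 for Hist1h3g. It was 11.3 against 2.71 to 4.42 for Hist1h4j, 3.91 against 1.37 to 2.06 for Hist1h1a, 1.27 against 0.419 to 0.567 for Hist1h1b and 1.02 against 0.0293 to 0.302 for Hist1h2aa. The median over members was 3.17 in log2(FPKM + 1), against 1.55 to 2.12 in the others. MASC.2 had the highest Rn4.5s of the MASC lines (330 FPKM) and the lowest coverage at 1 FPKM of them (1.54 reads per base), and the part of these was not tested.

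Hist2h2aa1 went in opposite directions in the lines of 2 strains. The difference of MASCs minus SSCs was 1.00 in the Oct4-GFP lines, with both MASC lines above both SSC lines, and -0.54 in the 129mix lines, with both MASC lines below the 1 SSC line. Of the Oct4-GFP lines, MASC.1, MASC.2 and SSC.1 had Rn4.5s above 20 FPKM and SSC.2 did not. The 129mix lines MASC.3, MASC.4 and SSC.4 were all under it. Strain and library set can therefore not be told apart here, and this difference was not tested. The gene also overlaps Hist2h2aa2, so the split of reads between them is uncertain.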

How the results depend on the processing

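The number of members higher in MASCs (8) was 14 with a filter for at least 1 FPKM in at least 2 samples (18.7% of all transcripts tested), 14 with quantile normalization (13.3%), 16 with median centring (40.3%), 0 with the replicate block (6.95%), 20 with the strain block (10%), 37 (and 1 lower) with the Rn4.5s term (13.7%), 2 within libraries above (2.54%) and 37 within those under 20 FPKM (11.7%), and 0 at a raw p with a log2 difference of 2 (1.81%). For ESCs (3 higher) these were 9 (and 2 lower, 13%), 9 (9.08%), 14 (35.2%), 0 (3.89%), 8 (7.76%), 22 (and 2 lower, 10.3%), 0 (1.79%), 40 (8.53%) and 1 (1.97%), and 5 with a pseudocount of 0.1 (8.37%). At a raw p with a log2 difference of 1, chosen after seeing the data, 10 were higher (6.19%) and 2 lower, and 2 were lower in the fit over all 17 samples (14.5% lower). For HSCs (26 higher) there were 17 with a pseudocount of 0.1 (16.5%), 7 with the replicate block (12.7%), 1 with the strain block (7.95%, median 0.15), 12 (and 1 lower, median 0.49) with the Rn4.5s term (14.7%) and 6 at a raw p with a log2 difference of 2 (4.63%). In the strain block Hist1h2be, Hist1h2bj and Hist1h2bn turned to -0.13, -0.33 and -0.0755. The cause was not tested. Without 1 SSC or MASC line each, 2 to 8 members were higher in MASCs against SSCs (all transcripts, 9.9% to 11.5%) and 0 to 2 lower (17.1% to 19.7%). For ESCs 2 to 12 were higher (6.79% to 8.1%) and 0 to 2 lower (12.2% to 14.9%). For HSCs 18 to 37 were higher (14.8% to 16%) and none lower. The 37, the 12 and the 2 lower in MASCs came without MASC.2. Between MASCs and ESCs none was called. Over all left-out samples the median difference was 0.24 to 0.70 for MASCs and 0.36 to 0.99 for ESCs against SSCs. It was 0.70 to 1.72 for HSCs and -0.37 to 0.14 between MASCs and ESCs. With median centring the median of all transcripts was 0.15 for MASCs and 0.18 for ESCs against SSCs, where the main fit gave -0.0048 and -0.0111.

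Replicate numbers recur across groups but did not pair SSC with MASC lines. The deviations of same-numbered SSC and MASC lines correlated at -0.225 to 0.185 (mean -0.031). With the 2 ESC lines, same-numbered pairs correlated at 0.208 and 0.262 for SSCs and at 0.414 and -0.355 for MASCs. The replicate block is given only here. Small differences, single genes with near-identical copies and the separation of cell type from library set are beyond 2 to 6 lines per group.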
